A study of Homo sapiens with 6 samples.

Results

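The nuclear-encoded subunits of the oxidative phosphorylation complexes were followed in H2087-LCC cells. Every row of the expression table was selected whose symbol has the form of a subunit name. For complex I the forms were NDUFA, NDUFB, NDUFC, NDUFS and NDUFV followed by a number, and NDUFAB1. Complex II was read from SDHA to SDHD, and complex III from CYC1 and names that begin with UQCR. For complex IV the form was COX followed by a number from 4 to 8, an optional letter from A to C and optional digits. For complex V it was any name that begins with ATP5. The selection gave 85 of 21293 genes, of which 79 are subunits. They comprise 37 of complex I, 4 of complex II, 9 of complex III, 14 of complex IV and 15 of complex V. NDUFA4 was counted with complex IV, where its protein is now placed, and the other 6 rows were kept apart: the retrocopies and pseudogenes ATP5EP2, UQCRHL and UQCRBP1, the ATP5L copy ATP5L2, and ATP5S and ATP5SL, which carry the name but are not ATP synthase subunits. A mean of at least 10 normalized counts was reached by 79 of the 85 rows, 75 of them subunits; COX6B2, COX7A1, COX7B2, COX8C, ATP5L2 and UQCRBP1 stayed below it. COX4I1 of complex IV and USMG5 and C14orf2 of complex V have other name forms and are not members. They were read with the gene lists. The mitochondrially encoded subunits have no row in the table and were not analysed here.

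H2087-LCC is a human lung adenocarcinoma cell line, a dormant metastatic derivative selected in mice for cells able to stay latent. RNA-seq of polyA RNA was performed in 3 groups of 2 libraries: SB505124 for 3 days (SB), an inhibitor of the TGF-β type I receptor that serves as the baseline without TGF-β signaling, TGF-β for 3 days and TGF-β for 7 days. Both libraries of each group are technical replicates according to the study, so all errors and p-values below measure the spread between these libraries only. No SB library was made at 7 days, so 7 days of TGF-β and 7 days in culture cannot be told apart, and the table gives each gene relative to all polyA RNA, so less RNA per cell cannot be told apart from fewer cells that express it.

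In oxidative phosphorylation, complex I takes electrons from NADH and complex II takes them from succinate. Ubiquinone carries them to complex III, cytochrome c carries them to complex IV, which reduces oxygen, and the proton gradient that complexes I, III and IV build drives ATP synthesis by complex V. Most subunits are encoded in the nucleus, made in the cytosol and imported, and many of their promoters hold sites for the factors NRF1, GABP (an ETS factor) and YY1.

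The promoter letters of 6 members are shown first, since they belong to members that moved in opposite directions. They are the 150 bases before the start site (RefSeq, GRCh38.p14, strand of the gene) of the risers NDUFA12 (chr12:95003698-95003847, minus strand), UQCRC1 (chr3:48609647-48609796, minus) and NDUFA1 (chrX:119871682-119871831, plus), and of the fallers NDUFV1 (chr11:67606786-67606935, plus), COX8A (chr11:63974470-63974619, plus) and ATP5G1, now ATP5MC1 (chr17:48892637-48892786, plus). Capitals mark the letters of the NRF1 motif (GCGCA, any base, then GCGC) or of the ETS motif (CCGGAAG); the NRF1 letters of UQCRC1 and the ETS letters of NDUFA1 and COX8A are the reverse complements of these.
NDUFA12: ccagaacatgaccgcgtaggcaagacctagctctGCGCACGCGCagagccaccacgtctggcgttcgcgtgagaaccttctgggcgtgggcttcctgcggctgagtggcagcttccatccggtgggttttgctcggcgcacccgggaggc
UQCRC1: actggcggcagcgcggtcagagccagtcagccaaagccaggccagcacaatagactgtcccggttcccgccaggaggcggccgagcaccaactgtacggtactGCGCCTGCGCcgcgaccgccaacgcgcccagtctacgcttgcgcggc
NDUFA1: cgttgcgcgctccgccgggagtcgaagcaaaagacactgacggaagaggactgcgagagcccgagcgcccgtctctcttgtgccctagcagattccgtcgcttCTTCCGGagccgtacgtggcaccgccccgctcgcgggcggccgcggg
NDUFV1: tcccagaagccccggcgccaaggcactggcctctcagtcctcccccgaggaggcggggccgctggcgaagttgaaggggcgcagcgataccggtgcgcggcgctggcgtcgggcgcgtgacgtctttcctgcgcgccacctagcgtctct
COX8A: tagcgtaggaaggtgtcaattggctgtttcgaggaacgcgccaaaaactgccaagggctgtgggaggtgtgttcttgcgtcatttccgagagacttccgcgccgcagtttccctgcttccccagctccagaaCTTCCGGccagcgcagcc
ATP5G1: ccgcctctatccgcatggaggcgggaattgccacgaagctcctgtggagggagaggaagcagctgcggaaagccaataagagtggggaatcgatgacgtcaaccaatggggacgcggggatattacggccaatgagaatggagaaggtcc
Among these 6 stretches, the NRF1 letters stand in the risers NDUFA12 and UQCRC1, and the ETS letters stand in the riser NDUFA1 and in the faller COX8A. RefSeq windows of 250 bases before to 50 bases after the start site were found for 64 member genes (76 windows). Searched on both strands, the NRF1 letters stood in 21.05% of the member windows and in 7.388% of the 22199 windows of protein-coding genes. Members with these letters in a window include the 7-day risers NDUFA12 and UQCRC1. They also include the 7-day fallers SDHA, NDUFA9, UQCRFS1, UQCR10, ATP5I and ATP5O. A relation of the letters to the direction of change was not tested. The ETS letters stood in 26.32% and 12.84%, the YY1 letters (AAGATGGC) in 17.11% and 3.532%, and CCAAT in 32.89% and 34.69%. The last letters of the ETS motif can be the first of the YY1 motif, so 1 run can hold both.

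The libraries held 34306283 to 36340734 normalized counts, and the steps between low values put 1 assigned read at 0.896 to 1.098 normalized counts (weakly determined for TGF-β 3-day replicate 1). The TGF-β target SMAD7 had a mean of 95.5 normalized counts in SB (SD 23.3, n = 2), 916 and 799 at 3 days and 854 and 747 at 7 days, and of 10 markers of lung epithelium 7 fell (among them NKX2-1, SFTPB and CDH1) and 1 rose at both times. SFTPB had 1104 and 8273 in SB, so the 2 SB libraries differ, replicate 1 lying nearer to the TGF-β libraries in SFTPB. The sample labels do not say whether the 2 libraries of a group come from the same culture, so the source of their spread is not known. Among markers of other cells, CD68 (4368 to 5113), COL1A1 (196 to 581), PECAM1 (36 to 67) and PDGFRA (8 to 16) were tested, while the immune genes PTPRC, CD3E and LYZ, the fibroblast genes DCN and LUM and the endothelial genes VWF and CDH5 had at most 20 normalized counts in any library. Among the members, replicate 1 of the SB group also stood apart. In that group, replicate 1 lay above replicate 2 in 69 of the 79 tested members, with a median difference of 0.15 on the log2 scale against 0.006 over all genes. In the TGF-β groups the difference within a pair followed the GC content of the transcript, in opposite directions. Across 78 members, Pearson's r of replicate 1 minus replicate 2 with GC content was -0.583 at 3 days and 0.699 at 7 days. This describes members that share the libraries. Over 11129 genes with a mean of at least 100 it was -0.759 and 0.722. For the fold changes against SB, r with GC content over these genes was -0.0725 at 3 days and -0.0164 at 7 days. Among the members it was -0.43 and -0.441. Among the 17 tested members with at least 55% GC, replicate 1 lay below replicate 2 in 17 at 3 days and above it in 17 at 7 days. The counts by comparison, complex and gene list are therefore also given with each library corrected for its trend on GC content and length. This correction covers 13607 genes with both values, 78 members among them, and was chosen after the data were seen. GC content and length are those of a single annotated transcript per gene, which need not be the form these cells express. The part of GC content in any single difference was not tested.

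**Figure D1:**
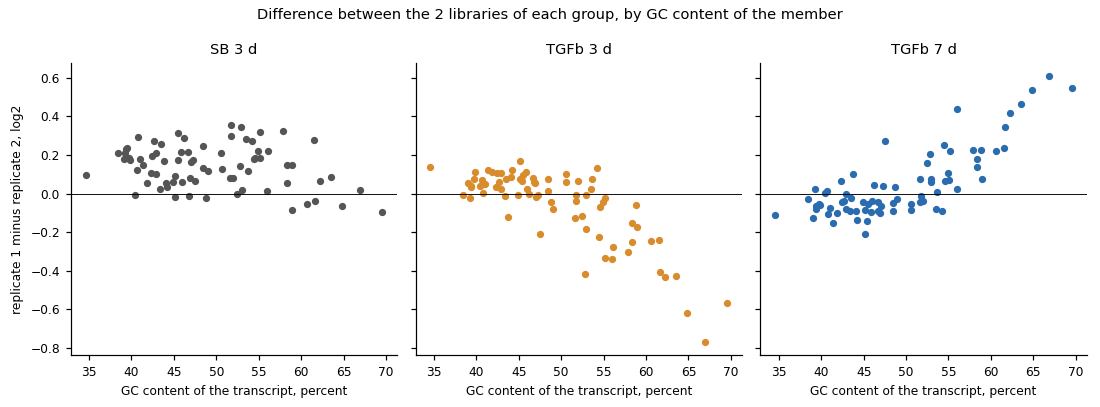
Difference between the 2 libraries of each group (replicate 1 minus replicate 2, log2 of normalized counts plus 1) against the GC content of the transcript in percent, 1 point for each of the 75 members with a mean of at least 100. The SB points lie mostly above 0, the TGF-β 3-day points fall with GC content and the 7-day points rise with it.

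After 3 days of TGF-β, most transcripts of the complexes did not pass the test against SB. Of the 79 tested members, 3 rose (NDUFA12, UQCRC1 and SDHC) and 3 fell (ATP5D, NDUFA7 and UQCR10), by limma on log2(normalized counts + 1) with Benjamini-Hochberg adjustment over the 14395 genes tested, at 0.05. These are 3.797% of the members in each direction, while 14.9% of all genes tested were higher, 14% were lower and 29% were either. Both 3-day libraries lay below both SB libraries in 29 members (36.71%, against 32.9% of all genes) and above them in 11 (13.92%, against 30.3%). The median log2 fold change of the members was -0.075, and that of all genes was -0.0215. With equal library totals the split was 2 higher and 7 lower (2.53% and 8.86%, against 12.6% and 17.7% of all genes). With the GC and length correction it was 10 higher and 5 lower (12.8% and 6.41%), against 20% and 21.4% of the genes corrected. The calls of the members also moved with single libraries, where fewer of all genes passed too. The members' median was 0.00363 without SB replicate 1 and -0.166 without SB replicate 2. It was -0.059 without TGF-β 3-day replicate 1 and -0.071 without TGF-β 3-day replicate 2. The medians of all genes were -0.0167, -0.0244, -0.0084 and -0.0195 in the same order.

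After 7 days of TGF-β the members were lower than in SB more often than genes at large with all 6 libraries as deposited, an order that turned with the GC and length correction, without SB replicate 1 and without TGF-β 7-day replicate 2. Of the 79, 30 fell and 4 rose (NDUFA12, SDHC, UQCRC1 and NDUFA1), or 37.97% and 5.063%, while 26.9% of all genes tested were lower and 27.7% were higher. Both 7-day libraries lay below both SB libraries in 45 members (56.96%, against 38.6% of all genes) and above them in 13 (16.46%, against 38.9%). The median log2 fold change was -0.20, against -0.00081 over all genes. By complex, 12 of 37 tested subunits fell in complex I, 2 of 4 in complex II, 4 of 9 in complex III, 3 of 10 in complex IV and 9 of 15 in complex V. The corrected counts of fallers, in the same order, were 5 of 36, 1 of 4, 5 of 9, 2 of 10 and 8 of 15, and those of risers were 8, 2, 1, 5 and 0 (0 of 15 in complex V also at an unadjusted p under 0.05 in limma). With the GC and length correction, 21 of 78 members fell and 16 rose, or 26.92% and 20.51%, against 35.7% and 28.4% of the genes corrected, so the share of fallers was above that of all genes as deposited and below it once corrected. The number of fallers was 17 without SB replicate 1 (21.5%, against 23.6% of all genes), 18 without TGF-β 7-day replicate 1 (22.8%, against 21.5%) and 10 without TGF-β 7-day replicate 2 (12.7%, against 20.3%). It was 20 without the variance trend (25.3%, against 24%). The members' median log2 fold change was -0.128 without SB replicate 1 and -0.26 without SB replicate 2. It was -0.253 without TGF-β 7-day replicate 1 and -0.181 without TGF-β 7-day replicate 2. The medians of all genes were -0.00181, -0.000356, -0.000526 and 0.00711 in the same order. Calls of 11 of these 34 members held under every alternative run: the fallers ATP5A1, ATP5B, ATP5F1, ATP5G1, ATP5L, COX5A, COX8A, CYC1 and NDUFV1, and the risers NDUFA12 and SDHC. Of the 34 calls, 14 were lost without SB replicate 1, 17 without TGF-β 7-day replicate 1 and 21 without TGF-β 7-day replicate 2, among the last those of ATP5D, NDUFA7, UQCR10, UQCRFS1, SDHA, SDHB, NDUFS1 and NDUFA1. UQCRC1 lost its call without TGF-β 7-day replicate 1 (0.17) and without SB replicate 2.

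Between 3 and 7 days of TGF-β, 14 members fell and 2 rose, 17.72% and 2.532% of the 79, against 16.2% and 17% of all genes tested, and 33.2% in either direction. Both 7-day libraries lay below both 3-day libraries in 37 members (46.84%, against 32.9% of all genes) and above them in 8 (10.13%, against 36.2%). The median was -0.102, and that of all genes was 0.0187. The fallers were the complex I subunits NDUFV1, NDUFA6, NDUFB9, NDUFA9, NDUFB8, NDUFS3 and NDUFV2, SDHB, CYC1, and ATP5G1, ATP5B, ATP5L, ATP5A1 and ATP5F1 of complex V. With the GC and length correction 17 fell and 7 rose, against 27.5% and 19.3% of the genes corrected. Most of these calls did not hold without any 1 of the 4 libraries, where fewer of all genes passed too. The members' median was -0.12 without TGF-β 3-day replicate 1 and -0.058 without TGF-β 3-day replicate 2. It was -0.121 without TGF-β 7-day replicate 1 and -0.082 without TGF-β 7-day replicate 2. The medians of all genes were 0.00554, 0.0281, 0.0147 and 0.0265 in the same order. In 39 members the group means fell from SB over 3 days to 7 days, in 9 they rose in that order, and in 31 they did neither. In 13 the falling order held without overlap between libraries: NDUFC1, NDUFV1, NDUFV2 and NDUFV3 of complex I, UQCRC2 and UQCRFS1 of complex III, COX5A and COX8A of complex IV, and ATP5A1, ATP5B, ATP5G1, ATP5G3 and ATP5I of complex V. The shares of all genes in these orders were not counted, so these counts do not set the members against genes at large. The comparisons with SB share the SB libraries, and those at 7 days share the 7-day libraries. The 3 sets of values are therefore not independent of each other.

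**Figure D2:**
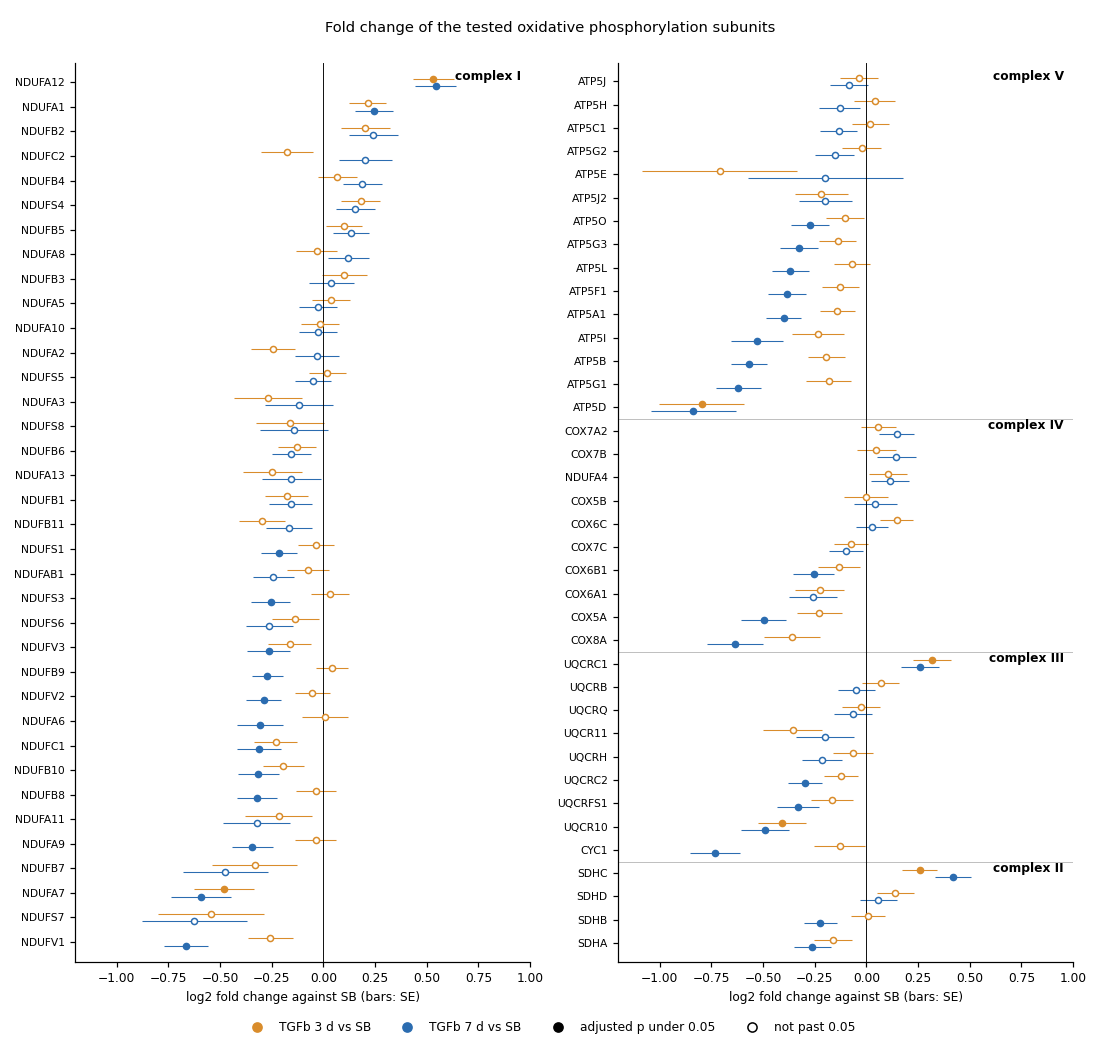
Log2 fold change against SB of 74 of the 75 tested subunits (1 of complex I is not plotted) after 3 days (orange) and 7 days (blue) of TGF-β, by complex and in order of the 7-day value; bars are standard errors of the limma fit and filled points have an adjusted p under 0.05. All 15 subunits of complex V with an ATP5 name lie below 0 at 7 days, while the rows of complexes I to IV spread to both sides. Over all complexes NDUFA12 is highest at 0.54 and ATP5D lowest at -0.84.

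Complex I has 7 nuclear-encoded core subunits, which carry the flavin and the iron-sulfur clusters, and 30 accessory subunits in the table. At 7 days 4 of the 7 core subunits fell (NDUFV1, NDUFV2, NDUFS1 and NDUFS3), or 57.14% against 26.9% of all genes, with a median of -0.255 on the log2 scale. Of the 30 accessory subunits 8 fell (26.67%, near the share of all genes) and 2 rose, with a median of -0.155. After the GC and length correction 2 of 7 core subunits fell (28.57%, against 35.7% of the genes corrected), NDUFV1 and NDUFS1, the calls of NDUFV2 (-0.12) and NDUFS3 (-0.095) being lost, and of 29 accessory subunits 3 fell and 8 rose. NDUFV1, which binds the flavin and accepts the electrons of NADH, had 3966 and 4115 normalized counts in the SB libraries, 3104 and 3688 after 3 days of TGF-β, and 2748 and 2357 after 7 days. The 3 groups did not overlap, and the 7-day mean was 63.2% of that in SB. The fall had a log2 fold change of -0.67 (SE 0.107, limma adjusted p = 0.000273) against SB and of -0.41 (limma adjusted p = 0.013) against 3 days. The annotated exons of NDUFV1 share 8.365% of their bases with another gene on the same strand.

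NDUFS1, the largest iron-sulfur subunit, had 5459 and 5265 normalized counts in SB, 5438 and 5025 at 3 days and 4462 and 4783 at 7 days. Its log2 fold change at 7 days was -0.21 (SE 0.085, limma adjusted p = 0.0496), a call lost in most of the alternatives run. With the GC and length correction the value was -0.53, with an annotated transcript of 11660 bases. Both 7-day libraries of NDUFS1 lay below all others. NDUFS7, another iron-sulfur subunit, had 244 and 241 in SB, 127 and 217 at 3 days and 194 and 127 at 7 days, and its log2 fold change of -0.62 at 7 days did not pass (SE 0.255, limma adjusted p = 0.0563). Its transcript is 66.89% GC, its 2 TGF-β pairs differed in the direction described for GC-rich members, and 51.45% of its exon bases lie opposite another gene, with a library kit that does not mark strand.

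NDUFA12, an accessory subunit at the joint between the arms of complex I, had the largest rise at both times among the members that passed. It had 3376 and 2799 normalized counts in SB, 4535 and 4358 at 3 days and 4419 and 4546 at 7 days, so that every TGF-β library was above every SB library. The log2 fold change was 0.53 at 3 days (SE 0.099, limma adjusted p = 0.0017) and 0.54 at 7 days (SE 0.099, limma adjusted p = 0.000631), or 144% and 145.2% of the SB mean. The gene lies on chromosome 12 (95289073 to 95397524, minus strand, GRCh37) and shares no exon base with another annotated gene. NDUFA1, a small membrane subunit encoded on the X chromosome, had 1801 and 1822 in SB, 2158 and 2050 at 3 days and 2083 and 2213 at 7 days. The rise against SB passed at 7 days (0.25, SE 0.09, limma adjusted p = 0.0372) and not at 3 days (0.21, limma adjusted p = 0.0966).

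NDUFA7 fell at both times. Its libraries had 828 and 729 normalized counts in SB, 495 and 625 at 3 days and 556 and 477 at 7 days, without overlap with SB. The log2 fold change was -0.48 at 3 days (SE 0.144, limma adjusted p = 0.0263) and -0.59 at 7 days (limma adjusted p = 0.00433). Without TGF-β 3-day replicate 1 the 3-day value was -0.31 and did not pass. Of its exon bases, 32.47% are shared with another annotated gene on the same strand, so its level is uncertain. NDUFA6 stayed level at 3 days, with 1566 and 1282 in SB and 1423 and 1426 at 3 days, and had 1162 and 1127 at 7 days (log2 fold change against 3 days -0.32, SE 0.112, limma adjusted p = 0.0478); against SB it fell by 0.31, but by 0.16 without SB replicate 1, which did not pass. NDUFC2 was the only complex I subunit that rose between 3 and 7 days, from 346 and 326 to 423 and 451 (0.38, SE 0.128, limma adjusted p = 0.0411), with 387 and 372 in SB. The exons of NDUFC2 are shared for 18.59% of their bases with another annotated gene on the same strand.

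Complex II, the succinate dehydrogenase that also belongs to the tricarboxylic acid (TCA) cycle, has 4 subunits, and they moved apart. SDHC, a membrane anchor, rose with time: 3302 and 3120 normalized counts in SB, 3911 and 3762 at 3 days, and 4142 and 4442 at 7 days, with no overlap between the groups. Its log2 fold change was 0.26 at 3 days (SE 0.086, limma adjusted p = 0.0415) and 0.42 at 7 days (SE 0.086, limma adjusted p = 0.00143). The 3-day call was lost in most of the alternatives run, equal library totals and the replicate block among them. The step of 0.16 from 3 to 7 days did not pass (limma adjusted p = 0.169). The other anchor, SDHD, changed by 0.057 on the log2 scale (SE 0.089) at 7 days, which did not pass. The catalytic pair was lower at 7 days. SDHB, the iron-sulfur subunit, had 4383 and 4205 in SB, 4354 and 4277 at 3 days and 3628 and 3732 at 7 days, and fell by 0.22 on the log2 scale against SB (SE 0.081, limma adjusted p = 0.0358). SDHA, the flavoprotein, had 3899 and 3906 in SB, 3355 and 3638 at 3 days and 3442 and 3079 at 7 days (-0.26 at 7 days, SE 0.091, limma adjusted p = 0.0286). Once corrected for GC and length SDHA kept its call and SDHB did not (log2 fold change -0.057, limma adjusted p = 0.316). The median over the 4 subunits, -0.083 at 7 days, turned to 0.073 with that correction.

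In complex III, 4 of 9 subunits fell at 7 days and 1 rose. CYC1, the cytochrome c1 that hands electrons to cytochrome c, had the largest fall, with 4044 and 3336 normalized counts in SB, 3088 and 3655 at 3 days and 2396 and 2038 at 7 days. The 3-day libraries overlapped those of SB, and both 7-day libraries lay below all others. The log2 fold change was -0.13 at 3 days (SE 0.122, limma adjusted p = 0.469; 0.028 with the GC and length correction), -0.73 at 7 days (SE 0.122, limma adjusted p = 0.000351) and -0.60 between 3 and 7 days (limma adjusted p = 0.00339). The call of CYC1 between 3 and 7 days held under every alternative run, the single call among the 16 to do so. UQCRFS1, the Rieske iron-sulfur protein, had 1127 and 1107 in SB, 989 and 999 at 3 days and 861 and 916 at 7 days, in falling order without overlap (-0.33 at 7 days, SE 0.101, limma adjusted p = 0.0156). UQCR10, a small subunit, fell at both times, from 1851 and 1769 in SB to 1267 and 1465 at 3 days (-0.41, SE 0.117, limma adjusted p = 0.0211) and 1414 and 1172 at 7 days (-0.49, limma adjusted p = 0.0038).

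UQCRC1 went the other way. This core protein had 6950 and 6692 normalized counts in SB, 8054 and 8970 at 3 days and 8676 and 7669 at 7 days, so all TGF-β libraries were above SB. The log2 fold change was 0.32 at 3 days (SE 0.091, limma adjusted p = 0.0212) and 0.26 at 7 days (limma adjusted p = 0.0304). Its partner UQCRC2 had 7099 and 6630 in SB and 5433 and 5740 at 7 days and fell by 0.30 on the log2 scale (SE 0.084, limma adjusted p = 0.0104). UQCRH had 3894 to 5033 normalized counts and its near-identical retrocopy UQCRHL 12 to 23. The authors assigned uniquely mapped reads only, so reads that match both equally would be missing. The pseudogene UQCRBP1 had 1 to 5 in any library.

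Among the 10 tested members of complex IV, COX8A and COX5A fell at 7 days, and COX6B1 did so near the threshold. The other 7 did not pass, and 4 members had an unadjusted p under 0.05 in limma in the falling direction and none in the rising direction. COX4I1, outside the name pattern, fell as well. It had 11360 and 10408 normalized counts in SB and 9461 and 8477 at 7 days (-0.28, SE 0.087, limma adjusted p = 0.0169). It is not part of the complex IV counts, median or summed share. COX8A had 2838 and 2265 normalized counts in SB, 1779 and 2199 at 3 days and 1766 and 1511 at 7 days. All TGF-β libraries lay below SB, and the 7-day log2 fold change was -0.63 (SE 0.135, limma adjusted p = 0.00191). Of the COX8A exon bases, 35.43% are shared with another annotated gene on the same strand. COX5A had 5647 and 4543 in SB, 4424 and 4225 at 3 days and 3419 and 3768 at 7 days (-0.50, SE 0.108, limma adjusted p = 0.00208). COX6B1 had 5346 and 4390 in SB and 3951 and 4170 at 7 days (-0.26, SE 0.1, limma adjusted p = 0.0479), a call lost with the GC and length correction (-0.092, limma adjusted p = 0.332) and without SB replicate 1 (-0.11). The median of complex IV was -0.035 at 7 days and turned to 0.13 with that correction, where 5 of the 10 rose (COX5B, COX6C, COX7A2, COX7B and NDUFA4) and 2 fell.

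For the subunits of complex IV that exist as tissue forms, the cells held the widely expressed form. COX7A2 had 3129 and 3155 normalized counts in SB, 3334 and 3204 at 3 days and 3372 and 3585 at 7 days (log2 fold change 0.15 at 7 days, SE 0.084, limma adjusted p = 0.163), and the muscle form COX7A1 had 1 to 5 in any library. COX6B1 had 3951 to 5346 and the testis form COX6B2 1 to 8. COX7B had 3693 to 4531, with a log2 fold change of 0.14 at 7 days (SE 0.094, limma adjusted p = 0.213), and COX7B2 was listed at 0 in 5 libraries and at 1 in the other. COX8C was listed at 0 in 5 libraries and at 2 in the other. COX6A1 had 2477 to 3478, with a log2 fold change of -0.26 at 7 days that did not pass (SE 0.117, limma adjusted p = 0.0801). No folds are given for the forms under 10 counts, and none of them came near its partner in any group.

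**Figure D3:**
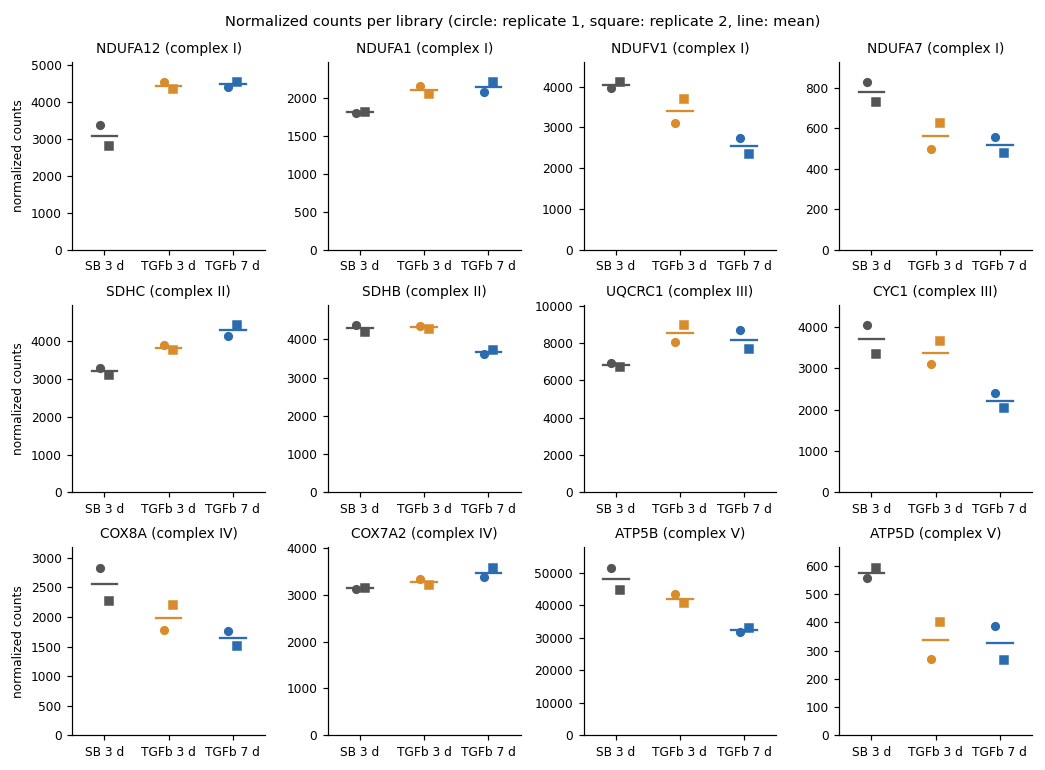
Normalized counts of 12 members in each library, with circles for replicate 1, squares for replicate 2 and a line at the group mean; each vertical axis starts at 0. NDUFA12, NDUFA1, SDHC and UQCRC1 are higher in both TGF-β groups than in SB, ATP5D and NDUFA7 are low from 3 days on, and CYC1, SDHB and ATP5B are lowest at 7 days.

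Complex V, the ATP synthase, had the largest share of fallers in the values as deposited. With the GC and length correction its 8 of 15 stood beside 5 of 9 in complex III. Among those of complex III, UQCRB passed only once corrected (-0.048 as deposited, -0.259 corrected), with an annotated transcript of 8459 bases. All 15 subunits with an ATP5 name had a negative log2 fold change at 7 days, with a median of -0.326. Of these, 9 passed: ATP5D, ATP5G1, ATP5B, ATP5I, ATP5A1, ATP5F1, ATP5L, ATP5G3 and ATP5O. USMG5 (-0.145, limma adjusted p = 0.293) and C14orf2 (0.013, limma adjusted p = 0.917), outside the name pattern and these counts, did not pass. No subunit rose, and none had an unadjusted p under 0.05 in that direction. Both 7-day libraries lay below both SB libraries in 10 of the 15 (66.67%, against 38.6% of all genes). With the GC and length correction 8 of 15 fell (53.33%, against 35.7% of the genes corrected), 11 were below 0 and the median was -0.226; without TGF-β 7-day replicate 2 the count was 5.

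ATP5B, the catalytic β subunit, is the most abundant member in normalized counts. It had 51555 and 44512 in SB, 43370 and 40495 at 3 days and 31694 and 32963 at 7 days. The groups fell in order without overlap, and the 7-day mean was 67.3% of that in SB. The log2 fold change was -0.19 at 3 days (SE 0.089, limma adjusted p = 0.127), -0.57 at 7 days (SE 0.089, limma adjusted p = 0.00022) and -0.37 between 3 and 7 days (limma adjusted p = 0.00797). ATP5A1, the α subunit that alternates with β in the F1 head, had 11208 and 9950, 9904 and 9278, and 7850 and 8158 in the same order of groups. It too fell without overlap, at 7 days by 0.40 (SE 0.086, limma adjusted p = 0.002). The γ subunit ATP5C1, the rotating shaft, did not pass: it had 6442 and 5620 in SB and 5406 and 5564 at 7 days (-0.13, SE 0.09, limma adjusted p = 0.23), a value that changed sign with the GC and length correction (0.029).

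ATP5D, the δ subunit of the central stalk, was the member with the largest fall at both times. It had 557 and 595 normalized counts in SB, 272 and 403 at 3 days and 389 and 266 at 7 days, or 58.6% and 56.9% of the SB mean. The log2 fold change was -0.80 at 3 days (SE 0.206, limma adjusted p = 0.0128) and -0.84 at 7 days (SE 0.206, limma adjusted p = 0.0046), and it was level between 3 and 7 days (-0.041). Its transcript is the most GC-rich among the members (69.55%), and its 2 TGF-β pairs differ as described for that class; the GC and length correction gave -0.57 (3 days) and -0.63 (7 days). The 3-day value was -0.51 without TGF-β 3-day replicate 1 and the 7-day value -0.56 without TGF-β 7-day replicate 2, and neither then passed (limma adjusted p = 0.116 and 0.0631). ATP5E, the ε subunit, had 12 to 30 normalized counts, and its retrocopy ATP5EP2 had 13 and 9 in SB, 7 and 10 at 3 days and 19 and 24 at 7 days. ATP5EP2 rose from 3 to 7 days (1.25, SE 0.402, limma adjusted p = 0.0324), but its counts are low. The authors assigned uniquely mapped reads only, so reads that match both rows equally would be missing, and both levels are uncertain. Of the other rows under ATP5 names, ATP5L2 had 0 to 3 normalized counts in any library, ATP5S had 374 to 482 and ATP5SL had 415 to 566, and neither of the last pair passed in a comparison with SB.

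The c ring of the membrane part is built from 1 mature protein encoded by 3 genes. Per kilobase of annotated transcript, mean levels were 3574 normalized counts for ATP5G1, 9472 for ATP5G2 and 1756 for ATP5G3. ATP5G1 had 3049 and 2442 in SB, 2384 and 2424 at 3 days and 1819 and 1734 at 7 days, and at 7 days fell by 0.62 (SE 0.109, limma adjusted p = 0.00052). ATP5G3 had 5406 and 4681, 4561 and 4578, and 3976 and 4048, and fell by 0.33 (SE 0.09, limma adjusted p = 0.00896). ATP5G2, the gene with the highest level, had 6718 and 5762, 6034 and 6211, and 5805 and 5389 (-0.15, SE 0.093, limma adjusted p = 0.181; 0.016 with the GC and length correction). The difference between the 3 genes was not tested. Of the peripheral parts, ATP5F1 and ATP5L fell at 7 days in all alternatives run, with 9298 and 7901 in SB against 6415 and 6717 at 7 days for ATP5F1 and 8139 and 7035 against 5911 and 5813 for ATP5L. ATP5I fell as well (-0.53), but 61.27% of its exon bases lie opposite another gene.

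Summed over all 85 rows, the members took 0.89% and 0.816% of the SB libraries, 0.792% and 0.793% of the 3-day libraries and 0.713% and 0.715% of the 7-day libraries. The 7-day mean was 0.714% (SD 0.00117, n = 2), or 83.7% of the SB mean of 0.853% (SD 0.0524, n = 2). The groups did not overlap, but with 2 against 2 libraries the exact two-sided permutation test cannot go below 0.33, the p it gave for each of the 3 comparisons. Complex V accounted for most of the difference, with 0.34% and 0.302% in SB, 0.285% and 0.277% at 3 days and 0.231% and 0.236% at 7 days, or 72.8% of the SB mean. At 7 days the other complexes kept 89.8% (complex I), 97% (complex II), 88.1% (complex III) and 90.5% (complex IV) of their SB mean. ATP5B alone made up 16.2% of the summed members in SB, 14.7% at 3 days and 12.6% at 7 days.

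**Figure D4:**
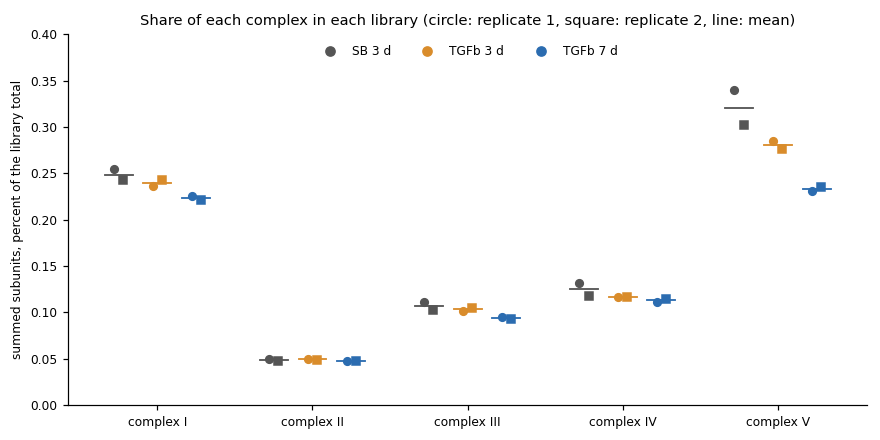
Summed normalized counts of the subunits of each complex as a percent of the library total, per library, with circles for replicate 1, squares for replicate 2 and a line at the group mean; the axis starts at 0. Complex V falls from 0.321% in SB to 0.234% at 7 days of TGF-β, while complex II stays near 0.05% in every library.

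Genes that serve the complexes were read from fixed lists. Among 45 tested assembly factors, 22 fell at 7 days and none rose (1 had an unadjusted p under 0.05 in that direction), with a median of -0.291; these 48.89% compare with 26.9% of all genes lower and 27.7% higher. BCS1L, which inserts the Rieske protein into complex III, had 1394 and 1284 normalized counts in SB, 1069 and 1099 at 3 days and 801 and 682 at 7 days (-0.85, SE 0.113, limma adjusted p = 5.95e-05). C11orf83 (UQCC3), another complex III factor, fell by 0.88 (SE 0.208, limma adjusted p = 0.0036), from 131 and 126 to 76 and 63. COA5, a complex IV factor, rose from 3 to 7 days (782 and 702 to 994 and 1064, 0.47, limma adjusted p = 0.0073). With the GC and length correction 25 assembly factors fell (55.56%) and 5 rose (11.11%), against 35.7% and 28.4% of the genes corrected.

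Of 23 tested electron carriers and subunit forms outside the rule, 9 fell and 2 rose at 7 days (39.13% and 8.696%, against 26.9% and 27.7% of all genes), and with the GC and length correction 8 fell and 3 rose (34.78% and 13.04%, against 35.7% and 28.4%). Cytochrome c (CYCS) had 15073 and 12438 in SB, 13420 and 12601 at 3 days and 9499 and 10177 at 7 days (-0.48, SE 0.098, limma adjusted p = 0.00145). The largest falls were in DHODH, the pyrimidine enzyme that feeds electrons to ubiquinone, with 864 and 893 in SB and 434 and 439 at 7 days (-1.01, limma adjusted p = 3.8e-05), and in PDSS1, of ubiquinone side chain synthesis, with 2969 and 2459 against 1366 and 1417 (-0.96, limma adjusted p = 1.37e-05). NDUFA4L2, a paralog of NDUFA4, rose from 31 and 30 in SB and 17 and 38 at 3 days to 76 and 90 at 7 days (1.41, SE 0.345, limma adjusted p = 0.00446), and COX7A2L, a factor of respiratory supercomplexes, rose by 0.23 (limma adjusted p = 0.0324).

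All 6 tested carriers of ADP, ATP and phosphate and channels of the outer membrane fell at 7 days, also with the GC and length correction, with a median of -0.419, while 26.9% of all genes fell (35.7% corrected). SLC25A4 had 596 and 604 in SB, 422 and 425 at 3 days and 319 and 366 at 7 days (-0.81, SE 0.127, limma adjusted p = 0.000221), and VDAC3 had 3178 and 2613, 2491 and 2310, and 1761 and 1947 (-0.64, limma adjusted p = 0.000439). In the TCA cycle 9 of 13 enzymes fell at 7 days and all 13 were below 0, with a median of -0.322 that stayed at -0.311 with the GC and length correction (9 of 13). These 69.23% compare with 26.9% of all genes lower as deposited and 35.7% corrected. The largest falls were in MDH2 (8151 and 7444 in SB, 6111 and 6670 at 3 days, 4990 and 4467 at 7 days, -0.72, limma adjusted p = 4.5e-05) and FH (6065 and 5220, 5456 and 4959, 3350 and 3692, -0.68, limma adjusted p = 0.000134).

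Of 17 tested regulators of mitochondrial biogenesis, 9 fell at 7 days (52.94%, against 26.9% of all genes) and, in limma, 0 rose or had an unadjusted p under 0.05 in that direction. After the GC and length correction 11 of 16 fell (68.75%, against 35.7%). PPARGC1A, which encodes the coactivator PGC-1α, had 211 and 205 normalized counts in SB, 48 and 25 at 3 days and 14 and 20 at 7 days. Every TGF-β library was below every SB library, with 17.6% of the SB mean at 3 days (log2 fold change -2.55, SE 0.317, limma adjusted p = 8.79e-05) and 8.17% at 7 days (-3.56, limma adjusted p = 2.59e-06). ESRRA, its partner receptor ERRα, had 478 and 513, 295 and 394, and 281 and 226 (-0.97 at 7 days, SE 0.169, limma adjusted p = 0.000465). The related coactivator PPARGC1B was higher at 3 days, with 661 in both SB libraries against 830 and 893 (0.38, limma adjusted p = 0.0202), and had 736 and 744 at 7 days. TFAM, which packages and transcribes mitochondrial DNA, had 5448 and 4736, 4700 and 4385, and 3222 and 3650 (-0.57 at 7 days, limma adjusted p = 0.000491).

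**Figure D5:**
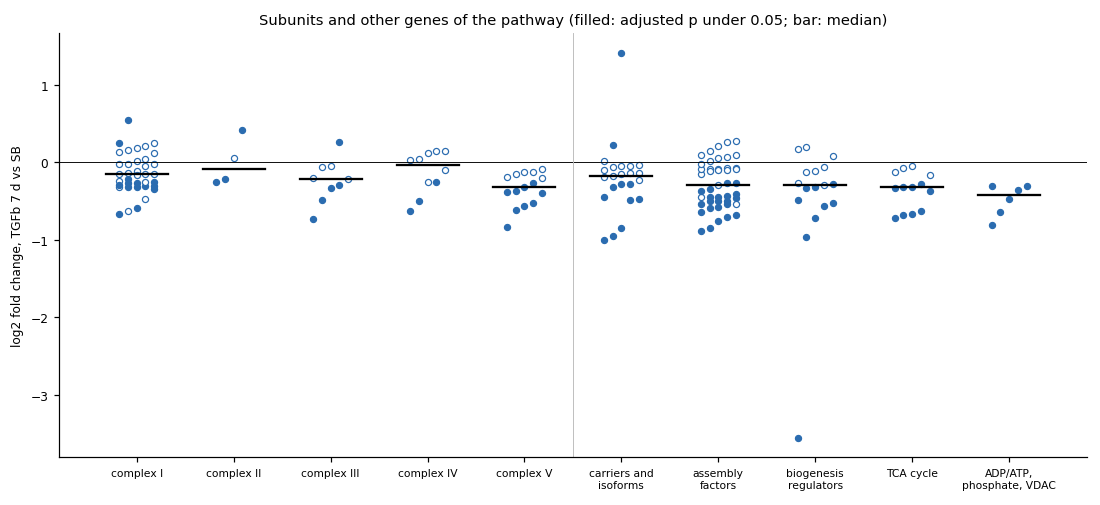
Log2 fold change of TGF-β 7 days against SB for the tested subunits of each complex (left of the grey line) and for 5 lists of genes that serve the pathway (right), 1 point per gene, filled where the adjusted p is under 0.05, with a bar at the median. Every median lies below 0, those of complexes II and IV turning above it with the GC and length correction, the lowest in the carriers and channels (-0.419), and the outlying points are PPARGC1A (-3.56) and NDUFA4L2 (1.41).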

How the data were processed

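PolyA RNA of 6 H2087-LCC libraries (3 groups of 2) was sequenced with an unstranded TruSeq kit, aligned by the authors with STAR to hg19 and counted per gene with HTSeq. The deposited values are a score, read counts scaled by library size and rounded to whole numbers by the authors, and no raw count was used. The read number behind each library, and so counting error, is known only as an estimate from the spacing of low values. Genes whose mean reached 10 entered a fit on log2(value + 1) by limma 3.58.1 (R 4.3.3, trended variance, all 6 libraries together, 3 residual degrees of freedom) and p-values were adjusted by Benjamini-Hochberg over 14395 genes; a fold change on this scale understates the change of low genes. The fit was tested on simulated data. By rule, the text names the 2 largest rises and falls past the threshold per complex and comparison. It also names the paralog sets, the core catalytic subunits, members that rose where most of their complex fell, and rows that failed the filter. For the gene lists, the 2 largest rises and falls past the threshold at 7 days against SB are named. Those of the other comparisons are not all named. NDUFS7, SDHD, UQCRC2, UQCRH, ATP5C1, ATP5E, ATP5EP2, ATP5F1, ATP5I, ATP5L, CYCS, TFAM, COX4I1, USMG5 and C14orf2 were chosen after their values were seen. The same holds for members named only in lists of calls. The members and gene lists were chosen with earlier results of these data known. Gene annotation (GENCODE, GRCh37) was matched by symbol, 19059 symbols as current, 1341 as older names and 893 not at all, and gave length and GC content for 84 of the 85 members. Alternatives were other pseudocounts (0.5 and 5), filters, scalings and variance models, a replicate block and each library left out, and, chosen after seeing the data, a loess correction for GC content and length (span 0.5) and a crossed block. A few items are not reported here.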

Additional observations from a re-analysis of the deposited data

Results flagged for a closer look

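The effects of TGF-β at 3 and at 7 days, each against SB, differed in 16 members by the limma test of 7 against 3 days, in which the SB libraries cancel. Of the 79 tested members 17.72% fell and 2.532% rose, against 16.2% and 17% of all genes tested. Only the call of CYC1 held under every alternative run. The difference in log2 fold change was negative in CYC1 (-0.60), ATP5G1 (-0.44), NDUFV1 (-0.41), ATP5B (-0.37), NDUFA6 (-0.32), NDUFB9 (-0.31), NDUFA9 (-0.31), ATP5L (-0.30), NDUFB8 (-0.29), NDUFS3 (-0.29), ATP5A1 (-0.26), ATP5F1 (-0.26), NDUFV2 (-0.24) and SDHB (-0.23). It was positive in ATP5EP2 (1.25) and NDUFC2 (0.38). Time on TGF-β and time in culture cannot be told apart here.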

How the results depend on the processing

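No member that passed changed direction under any alternative run. Among members that did not pass, the fold change took the other sign with the GC and length correction in 12 at 3 days, 12 at 7 days (ATP5C1 and ATP5G2 among them) and 10 between 3 and 7 days, and so did the medians of complexes II and IV at 7 days. For TGF-β 3 days against SB, the members rose and fell in counts of 3 and 3; the higher count was 1 without the filter on low values, 1 without the variance trend and 10 with the GC and length correction, and the lower count in limma was 0 without the filter (6 members with an unadjusted p under 0.05), 0 without the trend (5 such members), 7 with equal totals, 7 with the crossed block and 5 with the GC and length correction. For 7 days against SB, the members' higher count of 4 was 2 with equal totals and 16 with the GC and length correction, and the median of -0.20 became -0.092 with that correction. For 7 against 3 days, the members' higher count of 2 in limma was 0 without the filter (3 members with an unadjusted p under 0.05), 1 with a mean of at least 50, 1 with median-of-ratios scaling, 1 with the replicate block and 7 with the GC and length correction, and the lower count of 14 was 4 without the filter, 1 without the trend (where 2 rose) and 7 with the block. The cause was not tested.

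Leaving out each library in turn, the members' counts at 3 days were 1 to 3 higher and 0 to 9 lower with a median of -0.166 to 0.00363 (positive without SB replicate 1), at 7 days 2 to 7 higher and 10 to 32 lower with a median of -0.26 to -0.128, and between 3 and 7 days 0 to 2 higher (where 0, in limma without any 1 of the 4 libraries compared, 0 to 3 had an unadjusted p under 0.05) and 1 to 16 lower with a median of -0.121 to -0.058. The summed share of the members differed by -0.098 to -0.024, -0.176 to -0.102 and -0.079 to -0.078 percentage points in the same order.

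The replicate numbers do not show a pairing. Deviations of same-numbered libraries correlated at 0.208 between SB and 3 days, -0.13 between SB and 7 days and -0.647 between 3 and 7 days (11389 genes). With the replicate block, members rose and fell in counts of 2 and 4 at 3 days, 3 and 25 at 7 days and 1 and 7 between them; with the 7-day numbers crossed the counts were 4 and 7, 6 and 34, and 3 and 18. Over all genes at 3 days, 2149 were higher and 2021 lower, against 1591 and 1375 without the trend and 1597 and 1249 without the filter.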
